A study of Mus musculus with 192 samples.

Results

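The promoter windows described here lie within 100 bp of an annotated transcript start. They number 104834 of the 553094 windows in the deposited table of transcription start clusters, or 18.95%. A window was a member when its annotation began with the promoter class and its deposited distance to the nearest start was at most 100 bp in either direction. A peak of a single cell was placed in a window when its start lay within 2 bp of the window's start, and only peaks on the strand of the transcript, called sense peaks, were counted. The transcript's strand was known for 104265 member windows. Of all members, 98095 (93.6%) held a sense peak in at least 1 analysed cell and 6739 held none, the 569 of unknown strand among these. The members with a sense peak belonged to 12686 genes, of which 10496 carried a symbol and 2190 were transcripts without one.

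The study profiled RNA 5′ ends in single mouse embryonic fibroblasts, primary connective-tissue cells of the C57BL/6 strain, by single-cell TSS-seq of polyadenylated RNA. All cells received interferon-beta at 100 U/ml for 1 h. One group of 96 cells is labelled naive and the other group of 96 is labelled pretreated, and the labels do not say with what, or for how long, the second group was pretreated. No library came from cells without interferon-beta, and no culture or animal is named, so each group is 1 sample, no test between groups was made, and intervals are exact 95% binomial intervals that cover counting error only.

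A cell was analysed if its tags (reads) came to 10% or more of the median over cells, 2305627.5, which kept 92 naive and 85 pretreated cells. Total tags ran from 305066 to 3857034 in naive cells, with a median of 2305628, and from 502374 to 13174313 in pretreated cells, with a median of 2650490. Naive cells listed a median of 5231.5 peaks and pretreated cells 6605. Of 12 fibroblast marker genes 11 had a sense member peak in any analysed cell, and 7 reached 20% of the cells of a group. Sparc, a matrix glycoprotein, was listed in every cell, while Col1a1, Thy1, Pdgfra and Dcn stayed under 20% in both groups. Of 7 leukocyte markers 3 had a peak in any cell, and the highest, Cd68, reached 5.43% of the naive cells. The 4 epithelial, 4 endothelial and 3 erythroid markers had none. The neuronal marker Map2 was listed in 12.9% of the pretreated and none of the naive cells. A pair of kept cells stood apart, with 9.59% (naive cell 31) and 13.8% (pretreated cell 93) of their peak tags in member windows.

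A promoter is the stretch of DNA where RNA polymerase II assembles and begins transcription, and the distance between the initiation site and an annotated start says how well a gene model and the RNA's 5′ end coincide. Some promoters start at a single base, often with a TATA box upstream, and others, often rich in CpG, spread initiation over many neighbouring bases. Interferon-beta acts through its receptor, JAK kinases and a transcription factor complex that holds IRF9 and binds interferon-stimulated response elements in the promoters of antiviral genes.

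The stretches below show 3 kinds of member promoter that the values turn on. Rsad2 and Tgtp2 are interferon-responsive genes whose share of cells differed between the groups in opposite directions. Cxcl12 and Malat1 started at 1 position in all or most of the cells that listed them, and Tcp1 and Pfn1 had some of the lowest focus ratios. Each stretch runs 5′ to 3′ from 200 bases before the annotated start to the start base, from RefSeq on GRCm38.p6. Capitals mark matches, on either strand, to 4 motifs. The first is TATAAA, the box just named. The second is the core of an interferon-stimulated response element, or ISRE core, a pair of GAAA repeats separated by any 2 bases. The third is CCAAT, the box of that name. The fourth is GGGCGG, a GC box. RefSeq and the annotation of the deposited table can place a gene's start at different bases, so single cells' peaks are not laid onto these letters.
Rsad2 (chr12:26456452-26456652, minus strand): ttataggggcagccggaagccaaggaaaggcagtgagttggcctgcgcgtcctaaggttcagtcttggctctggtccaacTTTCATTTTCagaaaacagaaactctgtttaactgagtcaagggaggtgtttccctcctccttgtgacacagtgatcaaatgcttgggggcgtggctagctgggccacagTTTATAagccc
Tgtp2 (chr11:49064212-49064412, minus strand): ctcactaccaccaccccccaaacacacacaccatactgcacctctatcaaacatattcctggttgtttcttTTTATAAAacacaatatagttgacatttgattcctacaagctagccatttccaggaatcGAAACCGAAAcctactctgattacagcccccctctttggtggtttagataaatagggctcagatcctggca
Cxcl12 (chr6:117168335-117168535, plus strand): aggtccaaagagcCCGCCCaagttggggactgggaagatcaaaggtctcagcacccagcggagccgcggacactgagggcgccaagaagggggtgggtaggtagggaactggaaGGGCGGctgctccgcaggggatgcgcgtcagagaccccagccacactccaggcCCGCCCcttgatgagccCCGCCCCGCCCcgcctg
Malat1 (chr19:5802672-5802872, minus strand): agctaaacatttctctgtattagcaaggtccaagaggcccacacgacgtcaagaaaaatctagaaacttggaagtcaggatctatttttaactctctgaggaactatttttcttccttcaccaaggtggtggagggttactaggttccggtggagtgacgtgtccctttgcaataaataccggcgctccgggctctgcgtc
Tcp1 (chr17:12916129-12916329, plus strand): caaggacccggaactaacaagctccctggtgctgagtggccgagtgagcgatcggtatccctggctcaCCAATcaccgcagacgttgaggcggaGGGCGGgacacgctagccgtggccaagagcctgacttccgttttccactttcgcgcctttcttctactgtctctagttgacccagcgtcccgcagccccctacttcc
Pfn1 (chr11:70654650-70654850, minus strand): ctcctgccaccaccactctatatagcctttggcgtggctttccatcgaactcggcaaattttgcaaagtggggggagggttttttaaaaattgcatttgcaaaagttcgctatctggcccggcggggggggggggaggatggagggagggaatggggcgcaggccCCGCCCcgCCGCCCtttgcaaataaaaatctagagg

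In the Rsad2 stretch an ISRE core match on the opposite strand lay at -120 to -111 from the start and a TATAAA match on the opposite strand at -10 to -5. Tgtp2 held an ISRE core at -70 to -61 and TATAAA on both strands, the 2 matches overlapping, between -129 and -122. The Cxcl12 stretch held 5 GGGCGG matches, 2 of which share 1 base, and no match to the other 3 motifs. Tcp1 held 1 CCAAT and 1 GGGCGG match, Pfn1 held 2 GGGCGG matches, and the Malat1 stretch held none of the 4 motifs. Such a match is a description of the letters and not a measured binding site.

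Sense member peaks held most of the tags that lay in any peak. They took 61.5% of these tags in naive cells (61.47 to 61.49; 112609176 tags in 175924 peaks) and 68.6% in pretreated cells (68.62 to 68.63; 166421477 tags in 232277 peaks). Over cells the share had a median of 61.02% (9.59% to 68.5%) in naive and 69.4% (13.8% to 77.1%) in pretreated cells, so the 2 ranges overlapped. A naive cell had a median of 1917 sense member peaks (442 to 2710) in 1884 genes and a pretreated cell 2776 (491 to 3417) in 2720 genes. Protein-coding genes gave 79.5% of the naive and 85.8% of the pretreated member tags, and pseudogenes gave 6.65% and 1.83%.

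Member windows recurred from cell to cell more often than the rest. Of the sense members, 47.6% were seen in a single cell, against 85.2% of the other sense windows, and 8809 (8.98%) were seen in 10 or more cells, against 2214 of 331042 (0.669%). A gene had a median of 5 such windows and a maximum of 87. Of the windows listed in every analysed cell, those with most tags in both groups were the windows of Malat1, a nuclear long non-coding RNA (chr19:5802597-5802746 on mm9, minus strand, offset 0 bp), and of Lgals1, galectin-1, a sugar-binding protein (chr15:78757083-78757232, plus strand, offset 2 bp). Each was in all 92 naive and all 85 pretreated cells, as were those of Actb and of Ccl2, a chemokine that attracts monocytes (chr11:81849006-81849155, plus strand, offset 7 bp). At the 100 bp limit, the 3181 windows at 91 to 100 bp held 6612 sense peaks with a median of 193 tags and a focus ratio of 0.96. The 1470 windows just outside, up to 110 bp, held 2104 peaks with a median of 150 tags and a focus ratio of 0.957.

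Of the most abundant member genes, some started at 1 place in every cell and others at several. Malat1 gave 14106 tags per 1000000 total tags of a cell at the median in naive cells (2869 to 55199) and 9294 in pretreated cells (1630 to 43463), and 99.96% of the naive and 99.95% of the pretreated Malat1 tags lay in the window at offset 0. Lgals1 gave 12842 tags per 1000000 (685 to 21898) in naive and 9367 (1079 to 25210) in pretreated cells, all in 1 window. For both genes the ranges of the groups overlapped along most of their length. Actb, the cytoskeletal beta-actin (chr5:143668330-143668479, minus strand), lay at offset 0 in every cell, with 7042 tags per 1000000 (436 to 18574) in naive and 2646 (109 to 9388) in pretreated cells. Ccl7, a chemokine neighbouring Ccl2, had 4445 (129 to 19859) and 2333 (33.2 to 11307) tags per 1000000 at offset 2 bp. These levels are medians over the cells that list the gene, with the lowest and highest cell. Eif5a, a translation factor, lay at a median of -76 bp in naive and -78 bp in pretreated cells by the main annotation, whereas the RefSeq-based table places the same main windows at 9 bp and 7 bp downstream of a start. It led at -76, -74 or -78 bp in 38, 26 and 11 of 92 naive cells and at -78 bp in 57 of 85 pretreated cells, with 1728 (118 to 6079) and 4709 (60.2 to 11214) tags per 1000000. Sparc led at 31 bp in 66 and at 49 bp in 22 of 92 naive cells, and at 31 bp in 47 and at 49 bp in 38 of 85 pretreated cells, with 2891 (187 to 6277) and 3768 (188 to 7611) tags per 1000000.

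Over all sense member tags the offset from the annotated start, positive downstream, had a median of 1 bp in naive and 2 bp in pretreated cells. The quartiles were -5 and 16 bp in naive cells and -5 and 19 bp in pretreated cells. Tags within 5 bp of the start made up 38.6% in naive and 34.4% in pretreated cells, those within 50 bp 90.8% and 89.1%, and those upstream 33.8% and 35.3%. Per cell, the share within 5 bp had a median of 38.6% (34.4% to 51.4%) in naive and 34.04% (29.6% to 39.2%) in pretreated cells, and the ranges overlapped. Counting each peak once, 29.98% of naive and 29.1% of pretreated peaks lay within 5 bp. The 2 commonest offsets were 0 and 1 bp in both groups, whether tags or peaks were counted. With the RefSeq-based distances that the second deposited annotation gives, the medians were 19 bp and 21 bp, so the annotation sets the zero point of this measure.

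A few genes made up much of the peak at the start. Of the tags within 1 bp, Malat1 gave 12.4% in naive and 11.9% in pretreated cells. In naive cells Gm10076, annotated as a long non-coding RNA, gave 7.85%, Actb 6.58% and Gm10269, a processed pseudogene, 5.91%. In pretreated cells Fth1, the heavy chain of the iron store ferritin, gave 3.99%, Pkm, a pyruvate kinase of glycolysis, 3.65%, Actb 2.95% and Cxcl12, a chemokine of stromal cells, 2.91%.

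**Figure D1:**
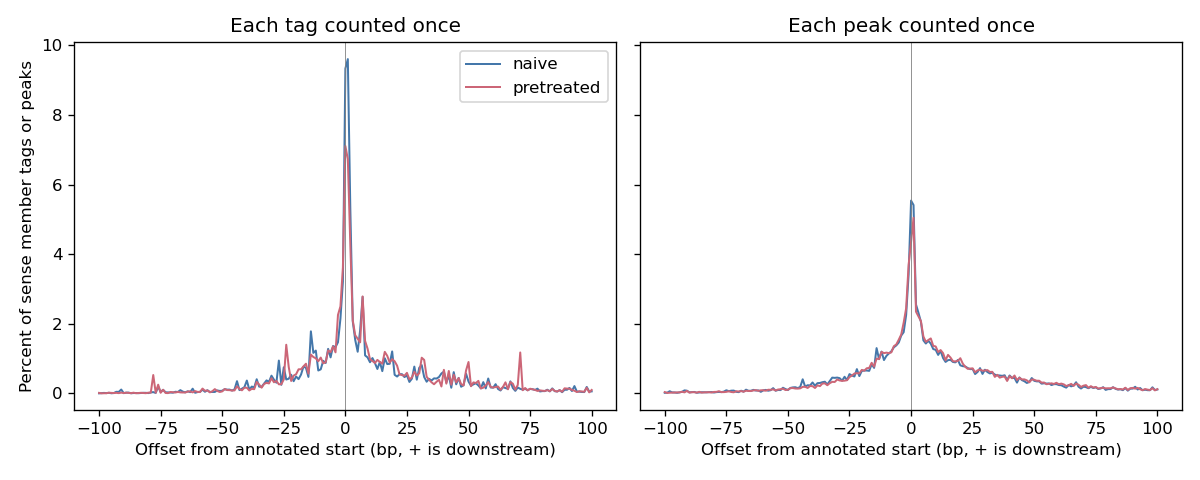
Percent of sense member tags (left) and peaks (right) at each offset in bp from the annotated start, positive downstream, with 1 line for the pooled naive cells and 1 for the pooled pretreated cells. Both groups have their highest values at 0 and 1 bp, and the spike at 71 bp in pretreated tags holds the Ifitm3 window with 1728381 tags.

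Most genes started at nearly the same position in both groups. Among the 1149 genes found in 50% or more of each group's cells, the tag-weighted median position on the genome differed by a median of 2 bp, by at most 2 bp in 587 genes (51.1%) and by at most 10 bp in 940 (81.8%). It lay further upstream in pretreated cells in 424 genes, further downstream in 236 and at the same base in 489. In 53 genes it differed by more than 25 bp. The offset from the nearest annotated start differed by more than 25 bp in 33 genes, and 26 genes passed by both measures. The measures part where windows of a gene were assigned to different transcripts, as in 671 of the 1149 genes.

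Among the genes with the largest offset shifts, Ndufb7, a subunit of respiratory complex I, had a median offset of 20 bp in naive and 68 bp in pretreated cells. Its leading peak, the one with most tags in a cell, was at 68 bp in 21 of 90 naive cells and 65 of 84 pretreated cells. Psme2b, which encodes a proteasome activator subunit and has a near-identical copy, had its leading peak at 41 bp in 41 of 48 naive cells and at 92 bp in 59 of 61 pretreated cells, so the naive and pretreated cells used largely separate windows. The RefSeq-based table places these main windows 261 bp and 312 bp downstream of a start, beyond the 100 bp limit. Gm25745, annotated as a microRNA gene, led at 56 bp in 58 of 91 naive cells and further upstream, at -13 bp, in 80 of 85 pretreated cells. The RefSeq-based distance of its main window was 52 bp in naive and -17 bp in pretreated cells. Whether these tags come from the RNA of another gene that starts there was not tested. Eif4ebp1, a repressor of cap-dependent translation, led at 67 bp in 38 of 76 naive cells and most often at 15 bp, in 15 of 46, in pretreated cells. The median offset of pretreated cells lay 66 bp further downstream for Tceal9 and 51 bp further upstream for Akr1b8, an aldo-keto reductase. For Pdcd5 it lay 50 bp further upstream, and 57 bp by position on the genome. Leading peaks of these genes were scattered. The commonest for Akr1b8 was at 73 bp in both groups, in 22 of 54 naive and 10 of 59 pretreated cells. For Tceal9 it was at 21 bp in 12 of 81 naive cells and at 87 bp in 16 of 78 pretreated cells. For Pdcd5 it was at 69 bp in 17 of 58 naive cells and at -7 bp in 17 of 76 pretreated cells.

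Some large offset shifts came from the assignment to another annotated start. Arf1, a small GTPase of Golgi transport, had an offset of 44 bp in naive and -53 bp in pretreated cells, yet its main windows (chr11:59041654-59041803 in naive and chr11:59041643-59041792 in pretreated cells, minus strand) and its median position differed by 11 bp on the genome. Etfa, an electron transfer flavoprotein subunit, had an offset 103 bp further downstream in pretreated cells and a median position 20 bp further upstream. Pfdn2, a prefoldin subunit, had an offset shift of 50 bp and a median position within 1 bp.

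**Figure D2:**
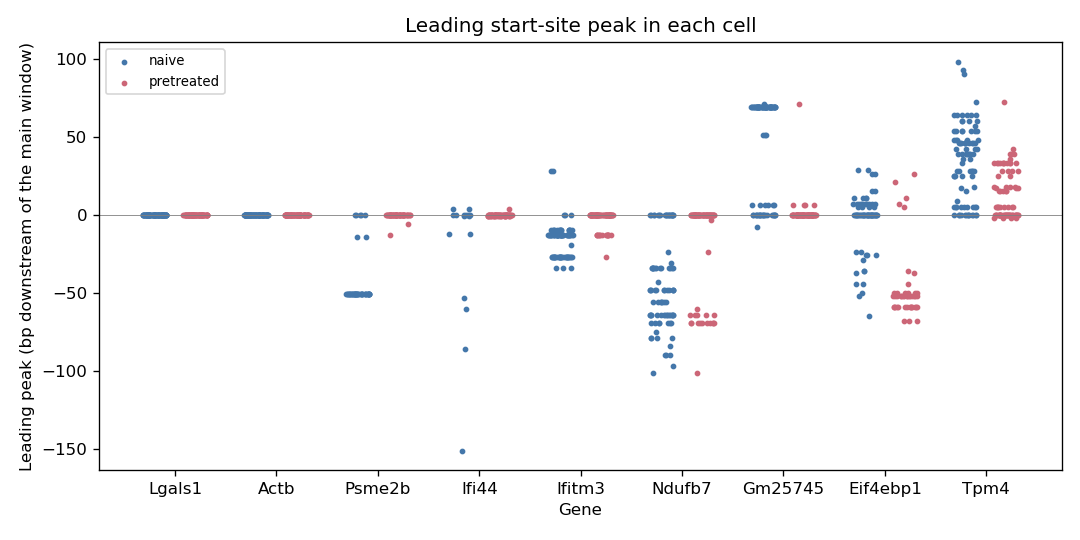
Position of the leading sense member peak in each cell, in bp downstream of the window with most tags of that gene over both groups, for 9 genes; each point is a cell. Lgals1 and Actb sit at 1 position in all cells, and the Psme2b, Ndufb7, Gm25745 and Eif4ebp1 cells of the groups gather at different positions.

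How much the leading start varied between cells differed by gene class. Over the 1149 genes the interquartile range of the leading position among cells had a median of 13 bp in naive and 12 bp in pretreated cells, and 38.1% and 40.96% of the cells with a peak lay within 2 bp of the commonest position at the median gene. For the 26 genes of the contractile, actin and matrix list present at this level, which holds Actb, the matrix genes Sparc and Fn1 and the intermediate filament gene Vim, the range was 1.5 bp in both groups, and 77.5% and 87.6% of cells lay within 2 bp. For the 41 cytosolic ribosomal protein genes the range was 11 and 12.5 bp, with 38.7% and 46.4% of cells within 2 bp. The 13 interferon-responsive genes had 12.3 bp in naive and 4 bp in pretreated cells. Vim had a median offset of 10 bp in naive and -12 bp in pretreated cells, with 31.1% of naive and 98.8% of pretreated cells within 2 bp of the commonest position. Ifitm3, a membrane protein that restricts virus entry, had its leading peak at 58 bp in 39 and at 44 bp in 28 of 91 naive cells, and at 71 bp in 70 of 85 pretreated cells.

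RefSeq promoter sequence was found by symbol for 848 of the 1076 named genes in this set. Promoters with a TATAAA match on either strand that begins at -35 to -20 were few, 18 genes, and their leading position varied less between cells at the median. Their interquartile range had a median of 0.5 bp in naive and 1.5 bp in pretreated cells, against 14 and 13 bp for the 830 genes without the match. In naive cells the quartiles over genes were 0 and 20.25 bp with the match and 6 and 25 bp without, so they overlapped. In pretreated cells they were 0 and 7.75 bp with the match and 5 and 23.9 bp without. The share of cells within 2 bp of the commonest position was 77.6% and 87.4% with the match, against 36.4% and 38.6% without. At least 80% of cells lay within 2 bp in 9 (50%) and 11 (61.1%) of the 18 genes with the match and in 74 (8.92%) and 92 (11.1%) of those without. The match itself occurred in 2.26% of all 32851 promoters of the table and in 1.10% of those of the genes compared for share of cells. The stretch searched was counted from the RefSeq start and not from the observed peaks. Genes with TATAAA at that distance before their observed start can therefore be among the 830 without the match. The relation with GC content was weak, with Spearman's rho of 0.0668 and 0.0283 between GC content and this range over the 848 genes, which share libraries.

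The focus ratio is the fraction that the peak caller gives for how closely a peak's tags gather, and the window behind it is not given in the sources used here. Sense member peaks had a lower focus ratio than other sense peaks. The median was 0.955 in naive and 0.891 in pretreated cells, whereas the other window classes ran from 0.974 to 0.983 and from 0.957 to 0.98. Within each cell the member median was below that of the other sense peaks, in 92 of 92 naive and 85 of 85 pretreated cells. Over cells the member median ran from 0.875 to 0.974, with a median of 0.957, in naive cells and from 0.837 to 0.954, with a median of 0.89, in pretreated cells. Member peaks also held more tags, 239 and 241 at the median, than the other classes, whose medians ran from 93 to 136.

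The relation of focus ratio to tag level differed in shape between the groups. In naive cells the median was 0.909 in peaks with fewer than 20 tags, 0.964 in those with 200 to under 500, and 0.93 in those with 1000 or more. In pretreated cells it was highest, 0.938, in peaks of 20 to under 50 tags and was lower in each following bin, down to 0.835 in peaks with 1000 or more. Other classes were also lower at high tags in pretreated cells. From 20 to under 50 tags to 1000 or more, the medians of promoter windows further from a start were 0.967 and 0.884, those of windows at transcript ends 0.964 and 0.915, and those of exon windows 0.968 and 0.922. Peaks of intron windows had 0.972 and 0.982 in the same bins, and 0.996 at 1000 or more in naive cells. The peak caller's threshold scales with a cell's total tags, so the lowest bins come from shallow cells. By the authors' normalised signal, the member medians in pretreated cells were 0.945 under a signal of 300 and 0.832 at 5000 or more. In naive cells they were 0.963 at 1000 to under 2000 and 0.924 at 5000 or more.

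**Figure D3:**
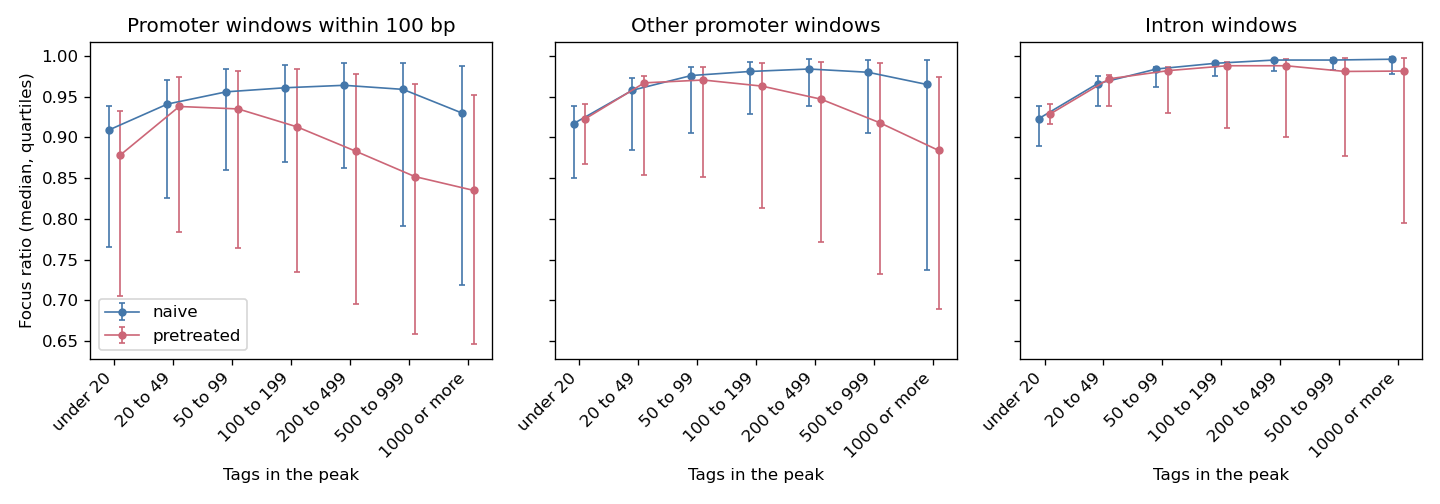
Median focus ratio with quartiles (bars) against the number of tags in the peak, for sense peaks of member windows, promoter windows further from a start, and intron windows, pooled over naive and pretreated cells. In member windows the pretreated medians descend from 0.938 at 20 to under 50 tags to 0.835 at 1000 or more.

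Within single cells, Spearman's rho between focus ratio and tags over member peaks had a median of -0.0019 in naive cells (-0.133 to 0.573) and -0.144 in pretreated cells (-0.233 to 0.0687). It was above 0 in 44 of 92 naive and 2 of 85 pretreated cells. For the other sense peaks the median was 0.367 and 0.0605. The value varied with depth. Across cells, rho correlated with total tags at -0.640 in naive and -0.548 in pretreated cells, a description over 92 and 85 cells that share their group's processing. The part of depth in the difference between the groups was not tested.

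**Figure D4:**
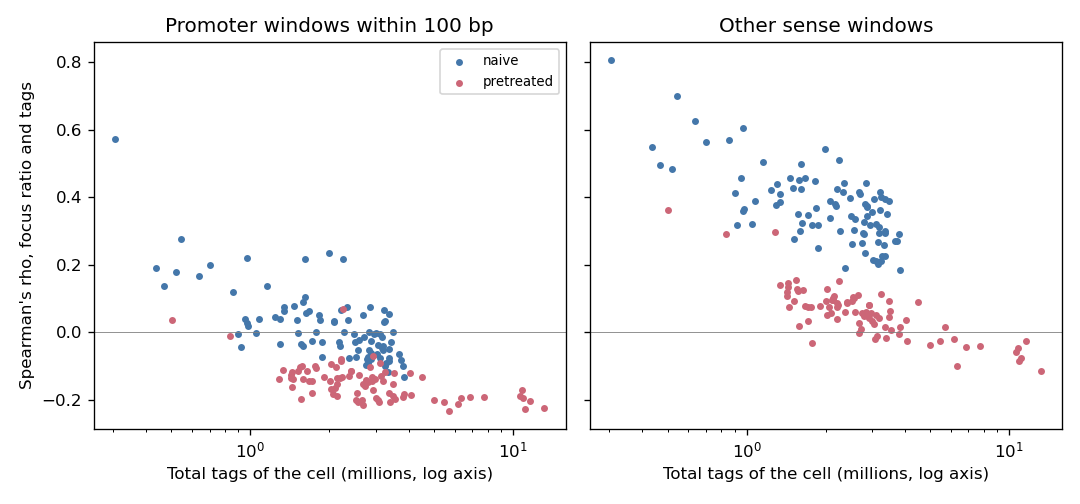
Spearman's rho between focus ratio and tags over the sense peaks of 1 cell against that cell's total tags on a log axis, for member windows (left) and other sense windows (right); each point is a cell. Most pretreated cells lie below 0 for member windows, and rho is lower in cells with more tags in both groups.

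Named genes spanned the range of focus ratio. Among genes found in 80% or more of each group's cells, the highest tag-weighted ratios were those of Gm10076 (1.00 in naive and 0.998 in pretreated cells) and, of protein-coding genes, Cxcl12 (0.990 and 0.987; chr6:117118519-117118668, plus strand, offset 1 bp). The processed pseudogenes Rpl3-ps1 and Gm5805, which have near-identical copies, and the transcribed processed pseudogene Gm15725 were the other 3 of the 5 highest (Rpl3-ps1 0.9999 and 0.990; Gm5805 0.990 and 0.999; Gm15725 0.991 and 0.997). The lowest were Atp5e, a subunit of ATP synthase (0.601 and 0.520), Tpm4, a tropomyosin (0.622 and 0.530), Tcp1, a subunit of the cytosolic chaperonin (0.697 and 0.469), Mgp, the matrix Gla protein that inhibits calcification (0.609 and 0.602), and Pfn1, the actin-binding profilin (0.667 and 0.606). Tcp1 used 29 windows in naive and 27 in pretreated cells, and its commonest offset, 17 bp, led in 20 of 89 naive and 23 of 84 pretreated cells. Pfn1 led at 9 bp in 41 of 75 and 46 of 84 cells, and at -10 bp in 21 and 33. Over the 1149 genes the ratio was lower in pretreated cells in 961 and higher in 188, with a median difference of -0.07. Across these genes, which share libraries, the ratio and the spread of leading positions had a rho of -0.364 in naive and -0.471 in pretreated cells.

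Of the 67 interferon-responsive genes that reached 20% of the cells of a group, 61 were listed in a larger share of the pretreated than of the naive cells and 6 in a smaller share. Over all 4309 genes at that level, 3587 were listed in a larger share. A gene that reached the level through the pretreated cells alone has a larger share there by the filter itself. H2-K1, a heavy chain of MHC class I, had a sense member peak in 3 of 92 naive cells (3.26%, 0.678% to 9.23%) and in 84 of 85 pretreated cells (98.8%, 93.6% to 99.97%). Zbp1, a sensor of Z-form nucleic acids, was listed in 11 (11.96%) and 84 (98.8%) cells, and Rsad2, the antiviral enzyme viperin, in 1 (1.09%) and 68 (80%). These 3 were named for the size of their gain, so their values are a description. A cell without a listed peak is not shown to lack the RNA.

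Shares were compared for the 4309 genes that reached 20% of the cells in 1 group or in both, and a gene was called higher or lower where the shares differed by 25 percentage points or more. Of these, 1171 were higher in pretreated cells, a background of 27.2%, and 183 were lower, a background of 4.25%. The median difference was 15.9 points, and 3587 genes lay above 0 and 666 below. In sense windows outside the member set, 397 of 4016 genes were higher, 9.89%, and 183 were lower, 4.56%, with a median of 7.14 points. These whole-table differences accompany the larger number of peaks in pretreated cells given above, whose part in them was not tested. Among the members, 56 genes were listed in all cells of both groups and 529 in at least 80% of both.

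Of the 111 genes on the interferon list, 96 had a sense member peak and 67 passed the 20% filter. Of these, 42 (62.7%) were higher, 2 were lower and 23 were neither, with a median difference of 35.8 points and median shares of 22.8% and 75.3%. Summed over the list, the level was 15037 tags per 1000000 sense member tags of a cell (3530 to 50857) in naive and 39610 (9127 to 64931) in pretreated cells. Both ranges were wide, and they overlapped.

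By role, the antigen presentation genes H2-K1 and Tap1, a peptide transporter (4.35% and 44.7%), were both higher, as was H2-T23, while Tapbp and B2m were called neither. B2m, the light chain of MHC class I, was listed in 98.9% and 100% of cells at offset -1 bp and its focus ratio was 0.798 in naive and 0.482 in pretreated cells. Of the signalling genes, Irf9, the DNA-binding subunit of the complex that interferon-beta activates, was listed in 3.26% and 37.6% of cells and Irf7, which amplifies interferon production, in 6.52% and 55.3%. Stat2 was listed in 2.17% and 2.35% of cells and did not pass the filter. Of direct antiviral effectors, Ifit3, an RNA-binding protein family member, was listed in 36.96% and 100% of cells, Gbp2, a guanylate-binding protein, in 16.3% and 80%, and Bst2, which tethers budding virions, in 30.4% and 98.8%. Ifit1 was listed in 73.9% and 98.8%, a difference of just under 25 points, and Ifitm3 in 98.9% and 100%. The effector genes Ifit2, Ifitm2, Mx1, Mx2, Oasl1 and Eif2ak2 were also called neither higher nor lower.

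The 10 genes of the list with the largest gains were H2-K1, Zbp1, Gbp3, Oasl2, Ifi44, Rsad2, Slfn2, Lgals3bp, Nmi and Ube2l6, and their differences ran from 72.6 points (Ube2l6, the enzyme that passes ISG15 to its ligase, in 23 and 83 cells) to 95.6 points (H2-K1). Gbp3, a guanylate-binding protein, was listed in 2 and 75 cells. Oasl2, a homologue of oligoadenylate synthetases, was listed in 12 (13.04%) and 83 (97.6%) cells. Ifi44 was listed in 16 and 84 cells. In pretreated cells all 68 leading Rsad2 peaks lay at 1 bp (35 cells) or -1 bp (33 cells), and 83 of the 84 leading Ifi44 peaks at -9 bp (58 cells) or -10 bp (25 cells). Oasl2 spread over 33 windows in pretreated cells, and 12.05% of cells lay within 2 bp of its commonest position. For H2-K1 in pretreated cells 61 of 84 leading peaks lay at 1 bp (chr17:34137153-34137302, minus strand).

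The 2 list members called lower were Tgtp2, a GTPase of the immunity-related family, and Ifi203, of the HIN-200 family. Tgtp2 (chr11:48877631-48877780, minus strand, offset 1 bp in naive cells) was listed in 49 naive cells (53.3%, 42.6% to 63.7%) and 6 pretreated cells (7.06%, 2.63% to 14.7%), and it has near-identical copies to which its reads may belong. Where it was listed, it gave 232 tags per 1000000 total tags at the median of naive cells (26.01 to 5740) and 26.6 (21.9 to 45.1) in pretreated cells. Ifi203 was listed in 27 naive cells (29.3%) and in none of 85 pretreated cells, which allows a share of up to 3.53% by a limit of 3 cells and 4.25% by the exact interval.

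**Figure D5:**
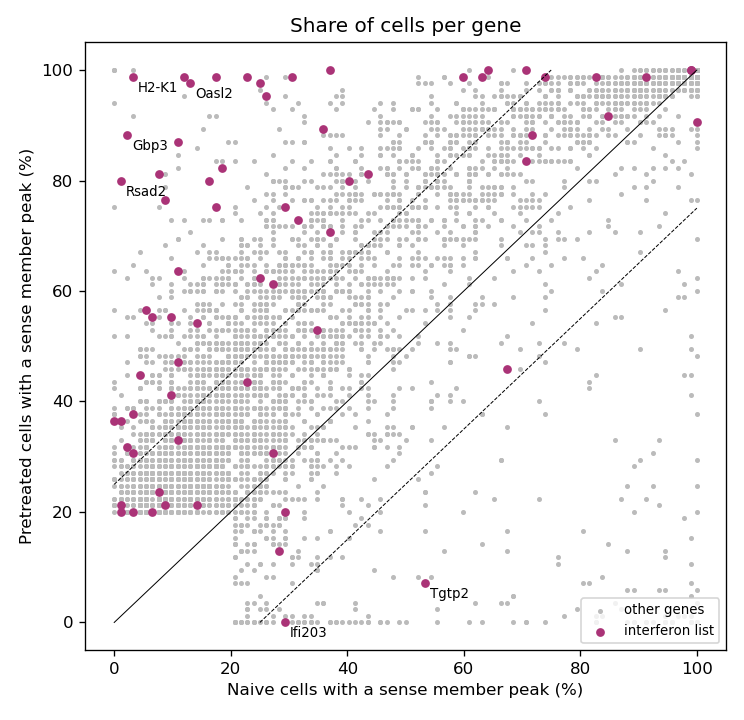
Percent of naive (x) and pretreated (y) cells with a sense member peak for each of the 4309 genes, with the 67 interferon-list genes in purple; the solid line marks equal shares and the dashed lines a difference of 25 points. Of the 67 genes, 42 lie above the upper dashed line and 2, Tgtp2 and Ifi203, below the lower one.

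The ISRE core occurred in 27 of 70 RefSeq promoters of the tested interferon list (38.6%; 54 of its 67 genes were matched by symbol), in 3.77% of those of all tested genes and in 3.44% of the 32851 promoters of the table. Within the list it was in 15 of 48 promoters of genes called higher (31.3%) and in 10 of 19 of genes called neither (52.6%). Both motif strands were searched over 300 bases, from 250 before the start to 50 after, and a gene could have more than 1 promoter in the table.

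In the other gene lists the share called higher was near or below the background of 27.2%. A gene already listed in most naive cells has little or no room to gain 25 points. The median naive share was 91.3% in the contractile and glycolysis lists and 73.9% in the ribosomal protein list, against 28.3% over all tested genes. It was 45.1% in the cell division and 29.3% in the immediate early list. Counts called higher in the contractile, glycolysis and ribosomal protein lists were thus limited in advance. In the contractile, actin and matrix list 3 of 29 tested genes were higher, 1 was lower and the median difference was 0 points. The higher ones were Timp1, an inhibitor of metalloproteinases (60.9% and 90.6%), Thbs1, a thrombospondin (55.4% and 92.9%), and Anxa2, an annexin (56.5% and 98.8%), and the lower one was Cnn1, a calponin of smooth muscle and contractile fibroblasts (66.3% and 29.4%). Acta2, alpha smooth muscle actin, was listed in 95.7% and 89.4% of cells. Of the 11 immediate early genes tested 3 were higher: Junb, a subunit of AP-1 (7.61% and 75.3%), Ier2 (11.96% and 63.5%) and Ier3 (36.96% and 81.2%), with a list median of 22.98 points. Fos, another AP-1 subunit, was listed in 56.5% and 80% of cells. Of the 69 cytosolic ribosomal protein genes tested 7 were higher and 6 were lower, with a median of 1.99 points, and their summed level was 37526 tags per 1000000 sense member tags (21364 to 52024) in naive and 22886 (9097 to 32764) in pretreated cells. The naming rule of this list leaves out Rps3a1, which was called higher (0 and 80 cells). Of 18 cell division genes 1 was higher, Mcm6 of the replicative helicase (8.70% and 34.1%), and the summed level of that list was 9126 (453 to 20859) and 2831 (0 to 11281). Both pairs of ranges overlapped. Of 11 glycolysis genes 1 was higher, Pfkl, a phosphofructokinase (55.4% and 84.7%).

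Among the largest differences, 7 of the 8 largest losses were in processed pseudogenes whose 5′ ends have near-identical copies. Of the 183 genes called lower, 71 were pseudogenes, 64 were protein-coding, 47 had no symbol and 1 was of another type. Near-identical copies of the first 100 bases were found for 97 of the 135 lower genes that could be searched (71.9%), for 42 of 1072 higher genes (3.92%) and for 396 of 3824 tested genes (10.4%). The processed pseudogenes Gm10132, Gm10059, Gm7618 and Rpl36-ps3 were listed in 91 or 92 of the naive and in none of the pretreated cells. Gm11836, Gm14165 and Gm9800, also processed pseudogenes, were listed in 91, 90 and 88 naive cells and in 1, 1 and 0 pretreated cells. Ptma, prothymosin alpha, a small acidic nuclear protein, was listed at offset -14 bp in 92 of 92 naive and in none of the 85 pretreated cells, and no copy was found for it. Its single window had a focus ratio of 0.9998 in naive cells. The RefSeq-based table places that window 165 bp downstream of a start, beyond the 100 bp limit. Peaks of Ptma outside member windows were not counted, so a loss of the gene's RNA is not shown. A count of 0 allows a share of up to 3.53% of the pretreated and 3.26% of the naive cells by the limit of 3 cells, and 4.25% and 3.93% by the exact interval. On the higher side, the unprocessed pseudogene Gm13340 and the processed pseudogene Gm11410 were listed in none of the naive and all 85 pretreated cells. Gm13340 has 1 near-identical copy, and none was found for Gm11410. Rps3a1, a protein of the small ribosomal subunit, was listed in 0 and 80 cells. Its leading peaks in pretreated cells lay at 48 to 95 bp, the last of these close to the 100 bp limit. Peaks of Rps3a1 outside member windows were not counted either, so a gain of the gene's RNA is not shown. The processed pseudogene Gm14843 was listed in 3 and 85 cells, and Phf11b, which has a near-identical copy, in 3 and 78. The processed pseudogene Gm10269, which has 9 near-identical copies, was listed in all 92 naive and 53 (62.4%) of the pretreated cells. Gm10076, which has 4 near-identical copies, was listed in every cell, at 9523 tags per 1000000 (1118 to 13939) in naive and 192 (25.2 to 497) in pretreated cells, so its ranges did not overlap. With only the genes that have a copy left out, 86 of 3913 tested genes were lower, and with the genes that could not be searched left out as well, 38 of 3428.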

How the data were processed

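Single-cell TSS-seq libraries of 192 cells were used as deposited. Per the submitters' processing notes, Bowtie2, HOMER and mm9 were used, with no versions given. Per the file headers, the authors called peaks of 150 bp in each cell and strand with HOMER, with a minimum of 200 tags per 10000000, and gave each a normalised tag signal and a focus ratio, a fraction from 0 to 1. The deposited window table gives a distance to the start in bp, a score without fixed range. Tags were recovered from the signal and the header total, and all 1082504 peaks came out whole within 0.1 tag. Strand came from the deposited table or GENCODE vM21. The 384 unnamed columns of the authors' matrices were not used.

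Cells under 10% of the median total were left out (4 naive, 11 pretreated). Copies were sought with BLAST 2.17.0, using the first 100 bases at 95% identity over at least 50 bases. Values were computed with Python 3.11.15, numpy 2.4.6, pandas 2.3.3 and scipy 1.17.1, and the functions were tested on simulated data. Named genes were the 10 of highest level, the 8 largest gains and 8 largest losses in share of cells, the 10 largest gains and all losses of the interferon list, the 5 largest offset shifts either way, and the 5 highest and 5 lowest focus ratios. Other members of the lists are named as examples of their group and were picked after their values were seen. The lists covered interferon-responsive, contractile, ribosomal protein, immediate early, cell division and glycolysis genes and markers of 7 cell types, of which 1 of 3 muscle and 1 of 3 neural markers had a peak. Members and lists were chosen with earlier results of these data known. Alternatives changed the distance limit, the annotation, the weighting, the depth, the signal and the gene filters.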

Additional observations from a re-analysis of the deposited data

Results flagged for a closer look

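Tags on the strand opposite to the transcript lay outside the main measurement, and every analysed cell had some in member windows. They made up 0.834% of member-window tags in naive cells (946545 tags in 3405 peaks, 92 of 92 cells) and 1.18% in pretreated cells (1987668 tags in 5249 peaks, 85 of 85 cells). No group without interferon-beta was measured to set beside these values.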

How the results depend on the processing

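Over the alternatives, 65 of 91 summary values stayed within their spread or within 1.5 times, 26 moved and 0 reversed. A reversal was possible only for the difference in tags within 5 bp, rho and the median differences in share of cells. Offset medians, counts of genes and member shares could only stay or move. The difference in tags within 5 bp (pretreated minus naive, -4.23 points) was -3.93 with a limit of 50 bp, -2.01 with RefSeq distances, -0.879 with each peak counted once, -3.53 for protein-coding genes -2.49 with genes that have a copy left out and -2.68 with genes not searched for one left out too. The median offset was 19 bp (naive) and 21 bp (pretreated) with RefSeq distances, 1 bp in pretreated cells with a limit of 50 bp, and 2 bp in naive cells with each peak counted once, for protein-coding genes or with copies left out in either way. The naive rho was -0.0272 for peaks of at least 50 tags. Genes called higher numbered 666 of 2997 at a signal of at least 500, and genes called lower 86 of 3913 with copies left out and 38 of 3428 with genes not searched left out too. The median difference over genes was 13.3 points at that signal, 16.8 and 17.05 with copies left out in these ways and 18.3 for genes that reached 50% of a group, where the interferon list had 43.5. The member share was 55.04% and 58.8% of total tags, and 55.6% and 61.8% with a limit of 50 bp. The cause was not tested. Of 179 values for named genes 1 reversed: Gm14843, whose main window lies beyond 50 bp, at -3.26 points with that limit. Leaving out the 2 cells that stood apart, and all but 1 use of the settings on copies (genes not searched left out too, for shares of cells), were chosen after seeing the data. Cells without replicates of their culture, unequal depth and an unstated pretreatment limit what a difference between the groups means. No paired analysis was possible because cell numbers only name cells and no test was made.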
